A study of Homo sapiens with 20 samples.

Results

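The metallothioneins and the core of the cellular zinc response are described here by 7 genes taken by name from the 45372 genes of each deposited expression table. They are the metallothionein genes MT2A, MT1X, MT1F, MT1E and MT1G, the metal-sensing transcription factor MTF1 and the zinc exporter SLC30A1. The 7 were chosen with earlier results of these data known, so their counts and medians beside all genes are a description. All 7 had a row in both tables. The values are TPM, a measure of transcript abundance that corrects for length and library size. Genes that reached 1 TPM in at least 4 of a table's libraries were tested, which 5 of the 7 did in each table, and MT1E and MT1G did not.

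Metallothioneins are small, cysteine-rich proteins that bind zinc, copper and cadmium and buffer free zinc in the cell. When free zinc rises, MTF1 binds it through its zinc fingers, enters the nucleus and activates genes whose promoters carry metal response elements, among them the metallothioneins and SLC30A1, which moves zinc out of the cell across the plasma membrane. Metallothionein transcripts are therefore widely used as a readout of the free zinc a cell senses, and they also respond to cadmium, oxidants and glucocorticoids.

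RNA was sequenced from HEK293T cells, an established line derived from human embryonic kidney, after treatment with HUWE1 siRNAs or with non-targeting siRNAs. HUWE1 encodes a large ubiquitin ligase of the HECT family, and the comparison asks how its depletion changes the transcriptome. There were 5 groups of 4 libraries: HUWE1 siRNA set 1 with its own non-targeting libraries, which carry no set number in the labels and are called set 1 here, and HUWE1 siRNA sets 2 and 3 with 4 non-targeting libraries that both sets share. The labels describe the 4 libraries of a group as biological replicates. The sources used here do not say what separates the sets, be it siRNA sequence, dose or time. The extraction text of the labels also mentions siRNAs against UBA1 and E2 enzymes, but each sample's own label names HUWE1 or non-targeting siRNAs, which is followed here. Every library came from this 1 cell line and the knockdown was partial.

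HUWE1 transcripts were lower in every HUWE1 siRNA library. Set 1 gave 86.1, 86.9, 83.5 and 83.6 TPM with HUWE1 siRNA, against 157.3, 162.3, 154.5 and 154.8 TPM with non-targeting siRNA. HUWE1 averaged 54.1% of its control in set 1, 57.9% in set 2 and 51.9% in set 3, with no overlap between groups in any set (exact permutation test, two-sided, p = 0.0286 in each set, the smallest p that 4 libraries against 4 allow). All 7 HEK293T marker genes had a mean of 1 TPM or more in each of the 5 groups. Their summed level ran from 772.4 to 812.4 TPM with HUWE1 siRNA and from 900.8 to 953.1 TPM with non-targeting siRNA in set 1. Markers of hepatocytes, a cell type rich in metallothioneins, summed to at most 2.97 TPM in any library. The TPM values keep no sequencing depth, so the depth behind each value is unknown.

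The 5 metallothionein genes lie within 76.0 kb of human chromosome 16 (GENCODE release 29 on GRCh38). MT2A spans chr16:56608199-56609497, MT1E chr16:56625475-56627112, MT1F chr16:56657694-56660698 and MT1X chr16:56682424-56684196, all on the plus strand, and MT1G spans chr16:56666731-56668065 on the minus strand. MTF1 (chr1:37809567-37859620) and SLC30A1 (chr1:211571568-211578742) are both on the minus strand of chromosome 1. All 7 are protein-coding. Metallothionein paralogs share sequence, and the number of 50-base stretches also present in transcripts of another gene was 341 of 1867 in MT1X (18.3%), 16.5% in MT1G, 7.10% in MT1E, 3.02% in MT2A and 1.22% in MT1F. The split of reads among these paralogs, MT1X and MT1G above all, is uncertain.

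The promoters of the members that moved in these data are shown because they carry the sequence that MTF1 reads. They come from the RefSeq promoter table (GRCh38.p14), which covers 250 bases before to 50 bases after a start and held 4 of the 7 members: MT2A, MT1X, SLC30A1 and MTF1. The windows are chr16:56608334-56608633 for MT2A and chr16:56682220-56682519 for MT1X, both on the plus strand, and chr1:211579112-211579411 on the minus strand for SLC30A1, and they are set by RefSeq starts, which differ from the GENCODE gene ends above. Each is written 5′ to 3′ on the strand of its gene, and capitals mark metal response element cores, searched as TGCACNC and TGCGCNC on both strands.
MT2A: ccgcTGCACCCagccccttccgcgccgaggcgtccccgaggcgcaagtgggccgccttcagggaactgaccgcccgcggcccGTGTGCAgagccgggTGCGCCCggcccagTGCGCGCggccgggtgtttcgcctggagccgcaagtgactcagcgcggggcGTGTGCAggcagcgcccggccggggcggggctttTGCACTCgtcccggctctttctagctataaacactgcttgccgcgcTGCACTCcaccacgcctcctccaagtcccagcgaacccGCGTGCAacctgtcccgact
MT1X: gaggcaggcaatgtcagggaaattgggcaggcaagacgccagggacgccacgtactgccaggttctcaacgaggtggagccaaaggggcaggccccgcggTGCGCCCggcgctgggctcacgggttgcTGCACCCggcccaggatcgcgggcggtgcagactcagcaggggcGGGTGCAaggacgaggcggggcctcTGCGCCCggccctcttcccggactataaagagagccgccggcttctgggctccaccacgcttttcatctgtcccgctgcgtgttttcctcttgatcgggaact
SLC30A1: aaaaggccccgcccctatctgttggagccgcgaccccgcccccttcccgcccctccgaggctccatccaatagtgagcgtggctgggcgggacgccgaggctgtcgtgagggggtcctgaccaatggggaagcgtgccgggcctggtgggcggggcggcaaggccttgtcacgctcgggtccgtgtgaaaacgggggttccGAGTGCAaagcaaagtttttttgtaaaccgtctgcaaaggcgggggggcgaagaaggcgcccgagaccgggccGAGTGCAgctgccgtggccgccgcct
MT2A held 8 such cores, MT1X 4 and SLC30A1 2, and MTF1 held 0. Of 27305 promoters of the same length, 29.3% held at least 1 core, 8.59% at least 2, 0.593% at least 4 and 0.022% at least 8. The antioxidant response element core, TGAC followed by any 3 bases and GC on either strand, is read by the oxidant-responsive factor NFE2L2. It occurred once in each of these 3 promoters and at least once in 13.6% of all promoters. These matches describe letters in a window and were not measured as bound sites.

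Of the 5 metallothionein genes, MT2A was the most abundant transcript in every library, followed by MT1X and MT1F. TPM is scaled for transcript length, so these levels can be set beside each other within a library. MT2A made up 71.9% of the summed metallothionein TPM in HUWE1 siRNA set 1 and 70.5% in its non-targeting libraries. In the second table its share was 58.3% in HUWE1 siRNA set 2, 62.8% in set 3 and 60.5% in the shared non-targeting libraries. The tables hold different sets of libraries, so a difference between tables cannot be told apart from one between sets. Levels are therefore not compared between them.

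**Figure D1:**
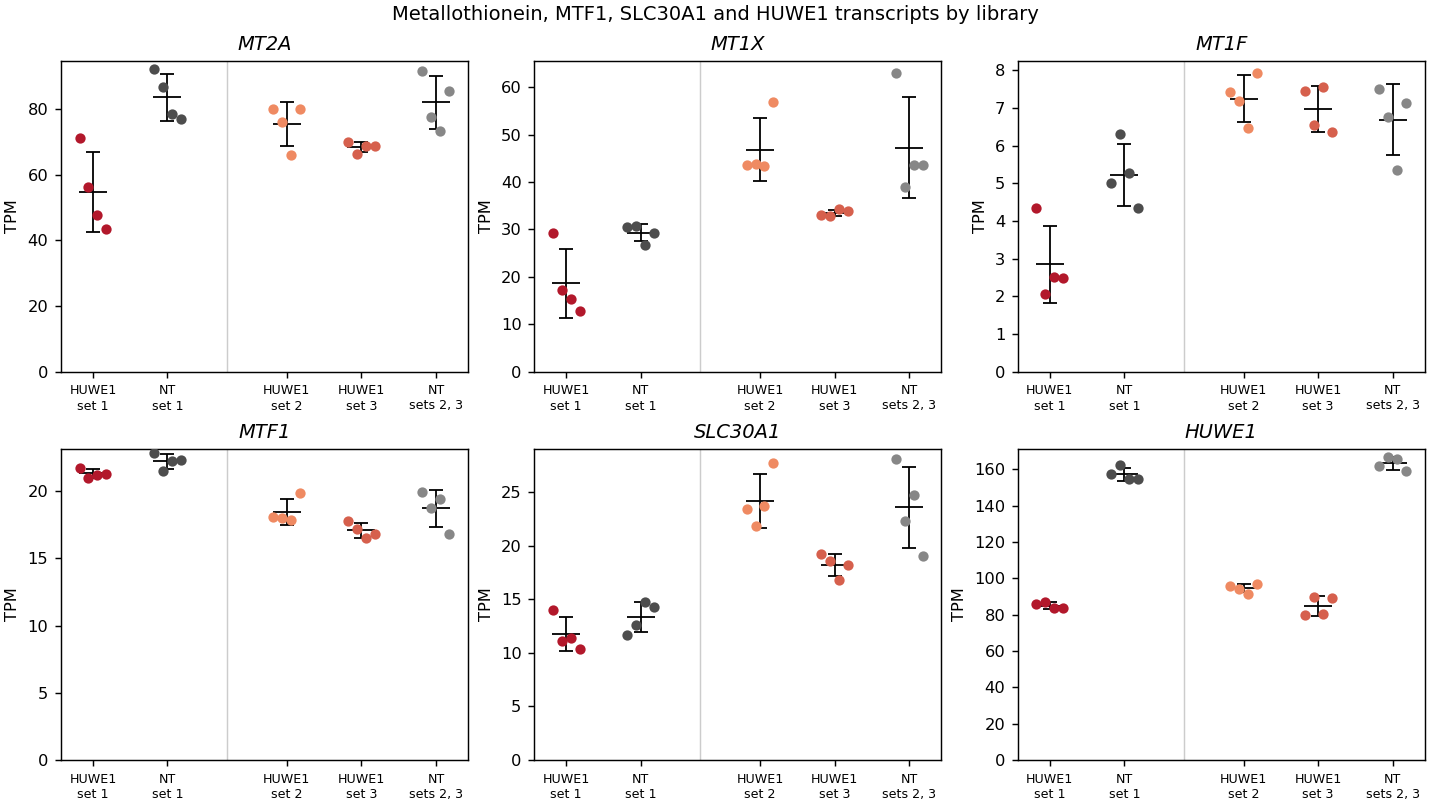
TPM of MT2A, MT1X, MT1F, MTF1, SLC30A1 and HUWE1 in each of the 20 libraries (points, replicates 1 to 4 from left to right), with the mean and SD of each group of 4 (bars); the vertical line separates the 2 deposited tables. In set 1 MT2A sat between 43.6 and 71.3 TPM with HUWE1 siRNA, below all 4 non-targeting libraries, and HUWE1 siRNA replicate 1 was the highest of its group for all 3 metallothioneins.

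In set 1 the metallothioneins were lower with HUWE1 siRNA. MT2A was at 71.3, 56.3, 47.8 and 43.6 TPM with HUWE1 siRNA, against 92.1, 86.8, 78.5 and 77.0 TPM with non-targeting siRNA. The groups did not overlap, and the spread was wider with HUWE1 siRNA. MT2A averaged 54.8 ± 12.2 TPM with HUWE1 siRNA and 83.6 ± 7.13 TPM with non-targeting siRNA (SD, n = 4 each), a log2 fold change of -0.62 ± 0.129 (SE) on the log2(TPM + 1) scale used throughout, with a limma adjusted p of 0.00586. The exact permutation test of the TPM values gave p = 0.0286. In bulk RNA, fewer cells expressing a gene and less RNA of it per cell cannot be told apart.

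MT1X was at 29.3, 17.3, 15.4 and 12.8 TPM with HUWE1 siRNA in set 1, against 30.6, 30.7, 26.8 and 29.2 TPM with non-targeting siRNA. Replicate 1 of the HUWE1 siRNA group lay among the non-targeting libraries and the other 3 lay well below them. The mean was 18.7 ± 7.30 TPM with HUWE1 siRNA and 29.3 ± 1.82 TPM with non-targeting siRNA (SD, n = 4 each). The log2 fold change of -0.69 ± 0.195 passed the threshold (limma adjusted p = 0.0239), and the exact permutation p was 0.0857. The call did not hold in 5 of the 8 fits that left out 1 library: non-targeting replicate 1 (adjusted p = 0.0513) or 2 (0.0536), or HUWE1 siRNA replicate 2 (0.0559), 3 (0.0650) or 4 (0.0597). It was also lost with no filter on low values (limma adjusted p = 0.0709).

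MT1F, a less abundant paralog, was at 4.34, 2.05, 2.51 and 2.50 TPM with HUWE1 siRNA, against 5.01, 6.32, 5.26 and 4.34 TPM with non-targeting siRNA. The groups met at 4.34 TPM, where HUWE1 siRNA replicate 1 and non-targeting replicate 4 could not be separated. The log2 fold change was -0.72 ± 0.162 (limma adjusted p = 0.00853; exact permutation p = 0.0571), and the mean with HUWE1 siRNA was 54.5% of the non-targeting mean. This call and that of MT2A held in every fit with 1 library left out, with adjusted p up to 0.0271 for MT1F and 0.0192 for MT2A.

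MT2A, MT1X and MT1F were the 3 members called in set 1, all lower, of 5 tested. In the same comparison 30.3% of all 16057 tested genes were called in either direction and 17.9% were called lower. The groups did not overlap, with HUWE1 siRNA below, for 18.4%. The median log2 fold change was -0.62 over the 5 members and -0.01 over all tested genes. Because the members were chosen with earlier results of these data known, these figures cannot show an excess over all genes. The summed metallothionein level was 76.7 ± 20.3 TPM with HUWE1 siRNA and 118.5 ± 8.87 TPM with non-targeting siRNA (SD, n = 4 each), with the highest HUWE1 siRNA library, at 105.3 TPM, below the lowest non-targeting library, at 110.7 TPM. Mitochondrially encoded transcripts took 25.1 to 26.2% of TPM with HUWE1 siRNA and 24.3 to 25.8% with non-targeting siRNA. The summed HEK293T markers were lower in the same libraries, as given above. Of 6 fibroblast markers, 3 had a mean of 1 TPM or more in these groups, and their sum ran from 28.2 to 30.4 TPM with HUWE1 siRNA and from 24.2 to 26.1 TPM with non-targeting siRNA. The part of either marker list in the metallothionein result was not tested.

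HUWE1 siRNA replicate 1 of set 1 carried the highest MT2A, MT1X, MT1F and SLC30A1 of its group, although its HUWE1 level of 86.1 TPM was like that of the other 3. Without it, the log2 fold changes were -0.76 for MT2A, -0.92 for MT1X and -0.89 for MT1F.

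In set 2 no member passed the test. MT2A was at 80.1, 76.1, 65.9 and 79.9 TPM with HUWE1 siRNA, against 91.5, 77.5, 73.4 and 85.6 TPM in the shared non-targeting libraries. The groups overlapped, and the 95% interval of the log2 fold change ran from -0.28 to 0.04 (limma adjusted p = 0.631). MT1X was at 43.5, 43.7, 43.4 and 56.8 TPM with HUWE1 siRNA, against 62.9, 38.9, 43.7 and 43.5 TPM with non-targeting siRNA. Apart from 1 high library in each group, the MT1X values lay within 38.9 to 43.7 TPM, and the interval of the log2 fold change ran from -0.27 to 0.28 (adjusted p = 0.996). MT1F was at 7.41, 7.19, 6.46 and 7.94 TPM with HUWE1 siRNA, against 7.51, 6.76, 5.36 and 7.13 TPM, and its interval ran from -0.10 to 0.31 (adjusted p = 0.703). Over all 15860 genes tested by limma in this set, 2 were called (0.0126%), one of them HUWE1, and 1401 had an unadjusted p under 0.05, so the members' count of 0 is that of nearly every gene. The groups overlapped for all 5 tested members, where 1.99% of all genes were higher and 1.71% lower without overlap.

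In set 3 MT2A and MT1X were lower and MT1F was not. MT2A was at 69.9, 66.3, 68.6 and 68.7 TPM with HUWE1 siRNA, below each of the non-targeting values of 91.5, 77.5, 73.4 and 85.6 TPM. MT1X was at 33.1, 32.8, 34.2 and 34.0 TPM, likewise below each of the non-targeting values of 62.9, 38.9, 43.7 and 43.5 TPM. In both genes the HUWE1 siRNA libraries sat close together and the non-targeting libraries were spread, with non-targeting replicate 1 the highest. MT2A averaged 68.4 ± 1.54 TPM with HUWE1 siRNA and 82.0 ± 8.13 TPM with non-targeting siRNA (SD, n = 4 each), a log2 fold change of -0.25 ± 0.0734 (limma adjusted p = 0.0453; exact permutation p = 0.0286). MT1X averaged 33.5 ± 0.675 TPM with HUWE1 siRNA and 47.2 ± 10.7 TPM with non-targeting siRNA, a log2 fold change of -0.46 ± 0.126 (limma adjusted p = 0.0394; exact permutation p = 0.0286). MT1F was at 7.45, 6.54, 7.55 and 6.35 TPM, against 7.51, 6.76, 5.36 and 7.13 TPM, within the same range, and the interval of its log2 fold change ran from -0.15 to 0.26 (limma adjusted p = 0.681).

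Together with SLC30A1, described below, 3 of the 5 tested members were called in set 3, all lower, against 11.6% of all 15860 genes called in either direction, 4.15% called lower and 6.03% without overlap and lower. The median log2 fold change was -0.25 over the members and 0.01 over all tested genes. As in set 1, the choice of members keeps these figures from showing an excess over all genes. These calls lay close to the threshold and depended on single libraries. With 1 of the 12 libraries of the second table left out at a time, the call of MT1X was lost in 8 fits and that of MT2A in 9. MT1X kept its call only without non-targeting replicate 2 or 4 or HUWE1 siRNA set 2 replicate 1 or 4, and MT2A only without non-targeting replicate 4 or HUWE1 siRNA set 2 replicate 1 or 3. Both stayed lower in each of these fits, with log2 fold changes from -0.54 to -0.32 for MT1X and from -0.30 to -0.20 for MT2A, and adjusted p up to 0.0994 and 0.110. With the replicate number as a block, the adjusted p of MT1X was 0.0661. Mitochondrially encoded transcripts took 15.5 to 16.4% of TPM in HUWE1 siRNA set 3 and 16.6 to 18.3% in the non-targeting libraries, without overlap, and with these transcripts removed from the TPM the 3 members were still called.

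The non-targeting libraries are shared by sets 2 and 3, so a high or low control moves both comparisons. Non-targeting replicate 1 had the highest MT2A, MT1X, MT1F, SLC30A1 and MTF1 of the 4, and it also had 141.8 TPM of HMOX1, the heme oxygenase gene that responds to oxidants, heme and metals, where the other non-targeting libraries had 62.4 to 79.2 TPM. Without this library, the set 3 log2 fold change was -0.20 for MT2A (limma adjusted p = 0.102), -0.32 for MT1X (0.0550) and -0.26 for SLC30A1 (0.107). Non-targeting replicates 1 and 4 correlated least with the rest of their group (mean r 0.987 each, against 0.992 for replicates 2 and 3). Without both, the set 3 log2 fold change was -0.14 for MT2A (limma adjusted p = 0.170) and -0.29 for MT1X (0.0551), while SLC30A1 kept its call. The summed metallothionein level was 129.6 ± 11.96 TPM in HUWE1 siRNA set 2, 108.9 ± 2.28 TPM in set 3 and 136.0 ± 18.5 TPM in the non-targeting libraries (SD, n = 4 each).

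**Figure D2:**
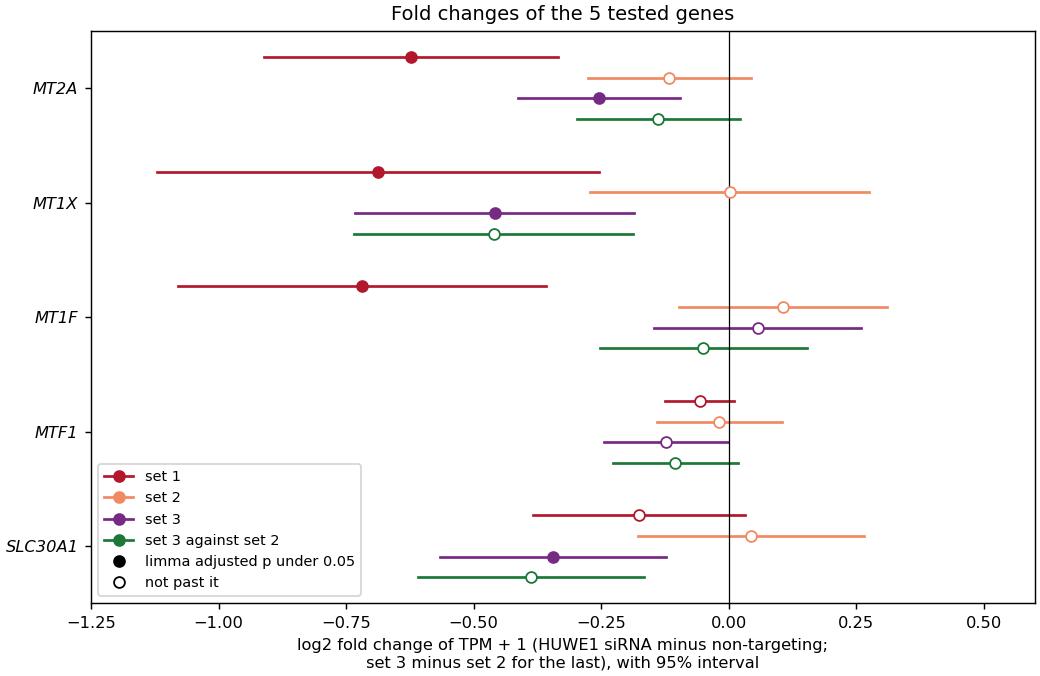
Log2 fold changes of TPM + 1 with 95% intervals from limma for the 5 tested genes in sets 1, 2 and 3 (HUWE1 siRNA minus non-targeting) and for set 3 minus set 2; filled points passed an adjusted p of 0.05. MT2A and MT1X were called lower in sets 1 and 3, MT1F in set 1 and SLC30A1 in set 3, and no member was called in set 2.

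MT1E and MT1G were at the floor of both tables. MT1E reached at most 0.378 TPM in set 1, in a non-targeting library, and was listed at 0 in all 12 libraries of the second table. MT1G reached at most 0.400 TPM in set 1, in a HUWE1 siRNA library, and was listed at 0 in 10 of the 12 libraries of the second table, with a highest value of 0.236 TPM. No fold change is given for either. Of 12 other metallothionein genes and pseudogenes looked for, 7 had a row, none passed the filter and the highest value was 0.337 TPM. MT1A and MT1B were listed at 0 in all 20 libraries. The metallothionein genes above the filter in these HEK293T cells were MT2A, MT1X and MT1F.

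MTF1, the zinc sensor that activates the metallothionein genes, was nearly level in set 1. Its transcript was at 21.8, 21.0, 21.2 and 21.3 TPM with HUWE1 siRNA, against 22.8, 21.5, 22.3 and 22.3 TPM with non-targeting siRNA. The groups overlapped by 1 library, the log2 fold change was -0.06 ± 0.0302 and its 95% interval ran from -0.12 to 0.01 (limma adjusted p = 0.183). In set 2 MTF1 was at 18.1, 18.04, 17.8 and 19.9 TPM and in set 3 at 17.8, 17.2, 16.5 and 16.8 TPM, against 19.96, 18.7, 19.4 and 16.8 TPM in the shared non-targeting libraries. Of the non-targeting libraries, replicate 4 was the low one and overlapped set 3. The set 3 log2 fold change was -0.12 with an adjusted p of 0.144 in limma, and without non-targeting replicate 4 it was -0.17 with an adjusted p of 0.0200. The transcript level of MTF1 says nothing of its zinc binding or location, which were not measured.

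SLC30A1, the plasma membrane zinc exporter, was called in set 3. It was at 19.2, 18.6, 16.8 and 18.2 TPM with HUWE1 siRNA, against 28.1, 22.3, 24.8 and 19.1 TPM with non-targeting siRNA. The highest HUWE1 siRNA library and the lowest non-targeting library met at about the same level and the rest did not overlap. The mean was 18.2 ± 1.04 TPM with HUWE1 siRNA and 23.6 ± 3.83 TPM with non-targeting siRNA (SD, n = 4 each), a log2 fold change of -0.34 ± 0.102 (limma adjusted p = 0.0487; exact permutation p = 0.0571). The call was lost in 10 of the 12 fits without 1 library, all but those without non-targeting replicate 4 or HUWE1 siRNA set 2 replicate 4, with adjusted p up to 0.131 and log2 fold changes from -0.44 to -0.26. With the replicate number as a block, its adjusted p was 0.0848.

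In set 1 SLC30A1 was at 14.0, 11.1, 11.4 and 10.4 TPM with HUWE1 siRNA, against 11.7, 12.6, 14.8 and 14.3 TPM with non-targeting siRNA. Replicate 1 of the HUWE1 siRNA group lay among the non-targeting libraries and the other 3 below them, the same split as for MT1X. The log2 fold change was -0.18 ± 0.0933, with a 95% interval from -0.38 to 0.03 (limma adjusted p = 0.183). Without HUWE1 siRNA replicate 1 it was -0.26 and passed the threshold (adjusted p = 0.0343). In set 2 it was at 23.5, 21.8, 23.8 and 27.8 TPM with HUWE1 siRNA, within the range of the non-targeting libraries, and the interval of the log2 fold change ran from -0.18 to 0.27 (adjusted p = 0.884).

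Set 3 was also set against set 2 directly, a comparison of HUWE1 siRNA libraries with HUWE1 siRNA libraries that does not use the non-targeting values except for the estimate of spread. MT1X was at 32.8 to 34.2 TPM in set 3 and 43.4 to 56.8 TPM in set 2, with no overlap. SLC30A1 was at 16.8 to 19.2 TPM in set 3 and 21.8 to 27.8 TPM in set 2, also with no overlap. MTF1, at 16.54 to 17.79 TPM in set 3 and 17.84 to 19.86 TPM in set 2, narrowly missed overlap as well. It differed by -0.10 (limma adjusted p = 0.391; exact permutation p = 0.0286). The log2 fold changes were -0.46 ± 0.126 for MT1X (limma adjusted p = 0.123; exact permutation p = 0.0286) and -0.39 ± 0.102 for SLC30A1 (limma adjusted p = 0.112; exact permutation p = 0.0286). No member passed the adjusted threshold of limma in this comparison, in which 0.517% of all genes were called and 2507 had an unadjusted p under 0.05, and 5.05% of all genes were lower in set 3 with no overlap. Fitted on the 8 libraries of these groups alone, MT1X and SLC30A1 passed it (adjusted p = 0.0260 and 0.0303). MT2A differed by -0.14, with an interval from -0.30 to 0.02 (adjusted p = 0.386), and HUWE1 itself had lower values in set 3, at 79.9 to 89.7 TPM, than in set 2, at 91.6 to 96.8 TPM, without passing the threshold (limma adjusted p = 0.134).

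Cells move zinc with exporters of the ZnT family, which take zinc out of the cytosol, and importers of the ZIP family, which bring it in. Of 9 tested ZnT family and related exporters other than SLC30A1, 1 rose and 1 fell in set 1, where 30.3% of all genes were called. SLC30A2, a vesicular exporter, was at 1.46, 1.06, 1.14 and 0.846 TPM with HUWE1 siRNA, against 2.74, 2.83, 2.27 and 2.55 TPM with non-targeting siRNA. Its groups were far apart at a low level of expression, with a log2 fold change of -0.77 and a 95% interval from -0.99 to -0.54 (limma adjusted p = 0.000603). The RefSeq promoter of SLC30A2 held 3 metal response element cores, and 2.27% of all promoters held at least 3. That of the importer gene SLC39A10, described below, held 0. Cores were not counted for other ZnT or ZIP genes apart from SLC30A1, and matches were not measured as bound sites. SLC30A3, which loads zinc into synaptic vesicles in neurons, was higher by 0.18 (adjusted p = 0.0360), a call that 9 of 17 alternative fits did not keep. In set 3 SLC30A9, a mitochondrial exporter, was called higher, at 0.37 (adjusted p = 0.0390, lost in 11 of 23 alternatives). SLC30A2 had log2 fold changes of 0.03 in set 2 and -0.05 in set 3.

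Of 11 tested ZIP importers, 4 rose and 3 fell in set 1, where 12.3% of all genes were called higher and 17.9% lower, with a median log2 fold change of 0.01 over the 11. SLC39A10, a plasma membrane importer, was at 48.2, 54.9, 62.9 and 66.1 TPM with HUWE1 siRNA, against 35.7, 39.9, 42.9 and 46.7 TPM with non-targeting siRNA. The groups did not overlap, as held with HUWE1 siRNA above for 13.3% of all tested genes, and the log2 fold change was 0.48 ± 0.102 (limma adjusted p = 0.00681). SLC39A4, the importer that takes up dietary zinc in the gut, was at 9.44, 11.1, 9.78 and 10.5 TPM, against 7.33, 7.85, 7.66 and 8.08 TPM, again with no overlap (0.36 ± 0.0541, adjusted p = 0.00124). The calls of SLC30A2, SLC39A10 and SLC39A4 held in each alternative fit of set 1 that tested them. SLC39A8 (0.14, lost in 4 of 17 alternatives) and SLC39A6 (0.11, lost in 7 of 17) were also higher. SLC39A11 (-0.21), SLC39A14 (-0.14) and SLC39A1 (-0.11, lost in 2 of 17) were lower.

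No ZIP gene was called in set 2. In set 3, where 11.6% of all genes were called, SLC39A7, which releases zinc from the endoplasmic reticulum, was lower (-0.21, limma adjusted p = 0.0449, lost in 15 of 23 alternatives). SLC39A10 had intervals from -0.19 to 0.14 in set 2 and from -0.13 to 0.19 in set 3, beside its set 1 value of 0.48. SLC39A14 had log2 fold changes of -0.16 in set 2 and -0.17 in set 3, and SLC39A11 of -0.20 and -0.18. Neither was called there, although the values were close to those called in set 1. The difference between set 1 and the other sets was not tested, because set and table cannot be told apart.

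**Figure D3:**
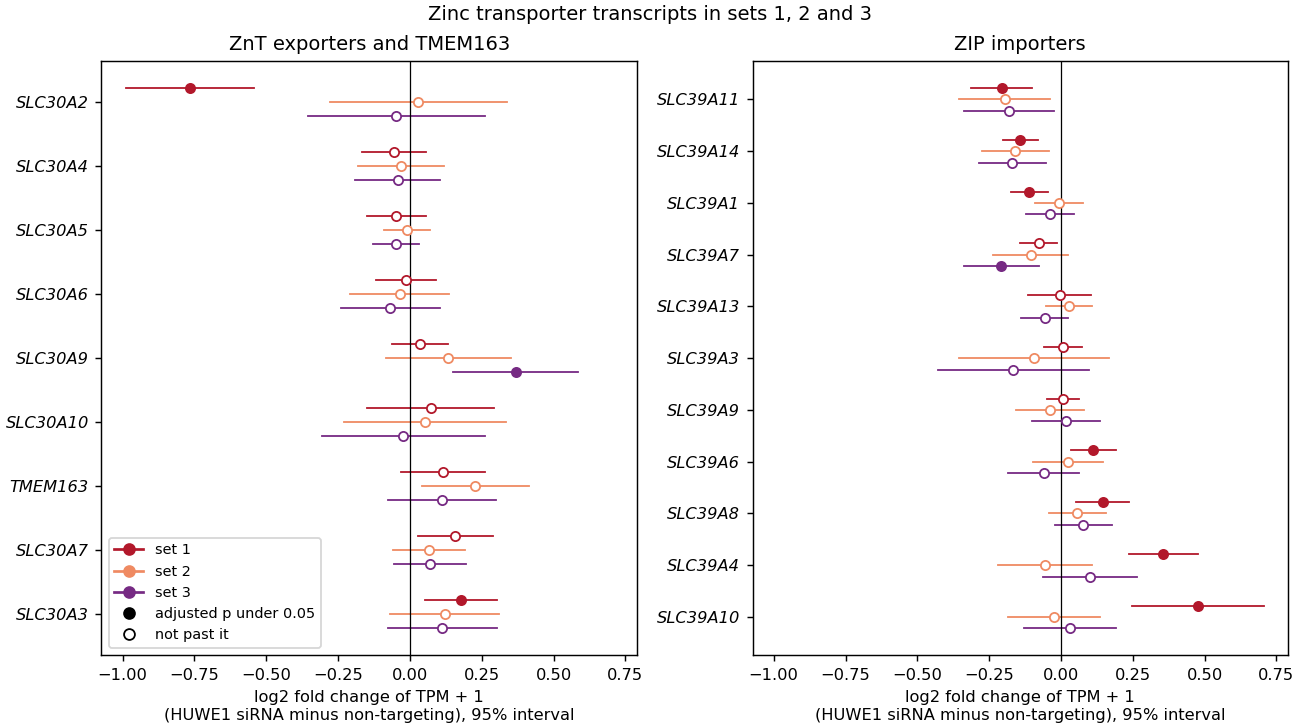
Log2 fold changes of TPM + 1 (HUWE1 siRNA minus non-targeting) with 95% intervals from limma for the 9 tested exporters other than SLC30A1 (left) and the 11 tested ZIP importers (right) in sets 1, 2 and 3; filled points passed an adjusted p of 0.05. In set 1 SLC30A2 stood lowest at -0.77 and SLC39A10 highest at 0.48, while in sets 2 and 3 both had intervals that included 0.

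MT2A and SLC39A10 ran in opposite orders across the libraries of set 1. Over those 8 libraries, ranked by MT2A, SLC39A10 was in exactly the reverse order (Spearman rho -1), and with the group means removed Pearson's r was -0.95. Within each of the 2 groups, same-numbered libraries held the same rank: MT2A was highest in replicate 1 and lowest in replicate 4, and SLC39A10 the reverse. The relation within groups and whatever same-numbered libraries may share cannot be told apart. The HUWE1 siRNA library with the highest MT2A, replicate 1 at 71.3 TPM, had the lowest SLC39A10 of its group, at 48.2 TPM. In the 12 libraries of the second table the relation was weak, with Pearson's r of -0.32 and rho of -0.29. The points share a table and its normalization, depth is unknown, and the pair was picked out after the values were seen, so these coefficients are a description.

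**Figure D4:**
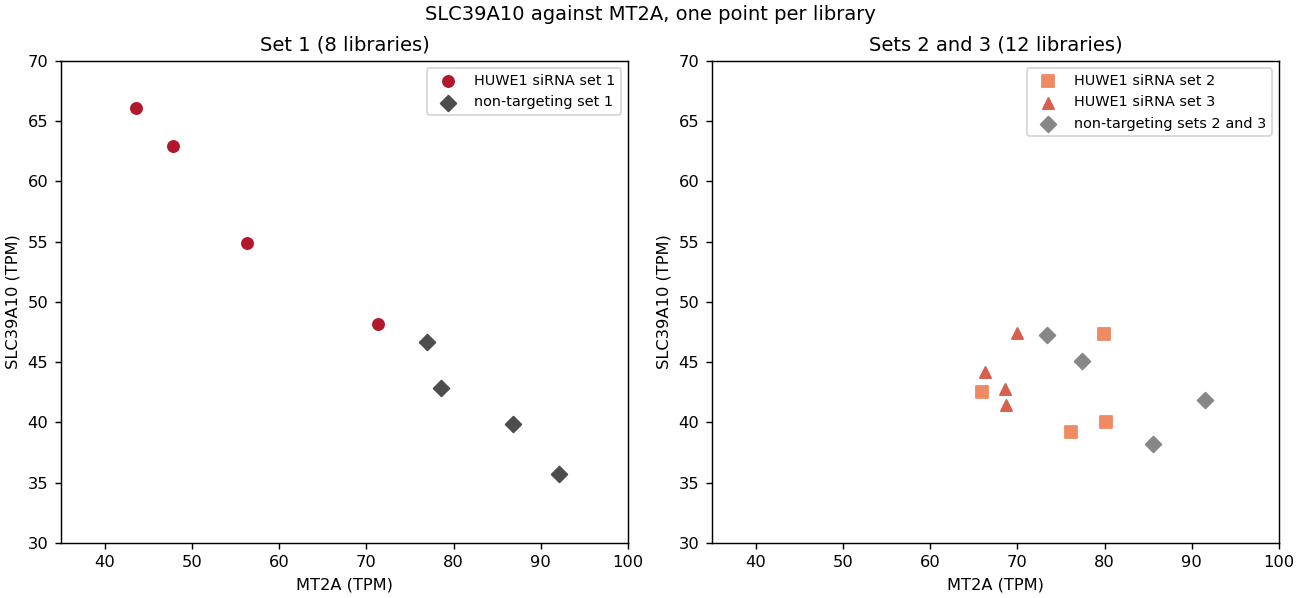
SLC39A10 against MT2A in TPM, 1 point per library, with the 8 libraries of set 1 on the left and the 12 libraries of sets 2 and 3 on the right, on the same axes. In set 1 the points fall along a line from 43.6 TPM of MT2A with 66.1 TPM of SLC39A10 to 92.1 TPM of MT2A with 35.7 TPM of SLC39A10, and in sets 2 and 3 they form no such line.

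Across all 20 libraries, with each table centred on its own mean, MT1X was the gene most like MT2A of 11467 genes with a mean of 5 TPM or more (Pearson's r = 0.90). Transcripts of MT1X and MT2A have 50-base stretches in common, and the part of shared reads in this coefficient was not tested. Next came ALDH18A1, an enzyme of proline synthesis (0.87), the cadherin-related gene CDHR1 (0.86), LRRC59 (0.85), the tubulin tyrosine ligase gene TTL (0.85) and the zinc finger gene ZNF585A (0.85). SLC30A1 reached 0.50 and MTF1 0.44. SLC39A10 was second from the bottom at -0.87, next to HSDL1 at -0.88. With the mean of each group removed as well, an addition made after the values were seen, MT1X was still first (0.85) and SLC39A10 last (-0.75), while ALDH18A1 had 0.56. The tables differed in these values. MT1X had 0.94 in the 8 libraries of set 1 and 0.63 in the 12 libraries of the second table. SLC39A10 had -0.95 and -0.32. The libraries share siRNA groups and tables, and no p is given for these coefficients.

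Genes that respond to other inducers of the metallothioneins, or that handle copper, the other main metal they bind, changed in both directions. Of 12 tested copper genes, 4 rose and 2 fell in set 1, where 30.3% of all genes were called. The chaperone genes ATOX1 (0.24) and CCS (0.19), the copper-zinc superoxide dismutase SOD1 (0.17) and the copper pump ATP7B (0.12, lost in 8 of 17 alternatives) were higher, and SLC31A2, a low-affinity copper transporter (-0.31), and the cytochrome oxidase assembly factor SCO1 (-0.21) were lower. In set 3 SLC31A2 averaged 6.32 ± 1.01 TPM with HUWE1 siRNA and 10.9 ± 2.00 TPM with non-targeting siRNA (-0.70 ± 0.137, limma adjusted p = 0.0157, lost in 3 of 23 alternatives). The copper pump ATP7A was lower there (-0.28, lost in 15 of 23) and the mitochondrial copper chaperone COX17 higher (0.28, lost in 3 of 23). These 3 are of 12 tested, beside 11.6% of all genes called in set 3.

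Of 10 genes that cadmium induces along with metallothioneins, 2 rose and 4 fell in set 1, against 30.3% of all genes called. HMOX1 averaged 85.9 ± 4.70 TPM with HUWE1 siRNA and 148.8 ± 5.999 TPM with non-targeting siRNA (SD, n = 4 each; log2 fold change -0.79). The heat shock gene HSPH1 (-0.26) and the redox genes SRXN1 (-0.20) and TXNRD1 (-0.19) were also lower. HSPA1B (0.18) and HSPA1A (0.12, lost in 1 of 17 alternatives) were higher. They are a nearly identical pair of heat shock genes whose reads may be split between them. In set 3 HSPA1A alone of the 10 was called, as lower (-0.33, lost in 6 of 23 alternatives), beside 11.6% of all genes. HSPA1B was level there (0.0015, limma adjusted p = 0.990), and the median over the 10 was -0.13.

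Of 7 tested glucocorticoid response genes, DUSP1 (-0.47), KLF9 (-0.22) and TSC22D3 (-0.19) fell and SGK1 (0.19, lost in 7 of 16 alternatives) rose in set 1, where 30.3% of all genes were called. In set 3, with 11.6% of all genes called, TSC22D3 (-0.33) and KLF9 (-0.28, lost in 11 of 23 alternatives) fell and FKBP5 (0.16, lost in 13 of 23) rose. TSC22D3, the glucocorticoid-induced leucine zipper gene, averaged 653 ± 19.1 TPM in HUWE1 siRNA set 3 and 820 ± 46.1 TPM in its non-targeting libraries (SD, n = 4 each), and its call held in every alternative fit of set 3. Sets 2 and 3 share controls, and no gene of these lists was called in set 2.

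Genes that flank the metallothionein cluster on chromosome 16 were also measured. Of 7 tested, GNAO1 (-0.31), OGFOD1 (-0.17) and NUP93 (-0.16) fell and none rose in set 1, where 17.9% of all genes were called lower, with a median of -0.04. In set 3, where 11.6% of all genes were called, none fell, with a median of 0.01, and NUDT21 was among those that rose (0.24, lost in 15 of 23 alternatives). NUP93 had log2 fold changes of -0.15 in set 2 and -0.12 in set 3, which were not called. Of 7 transcription factors and coactivators reported to act with MTF1, the hypoxia factor HIF1A rose in set 1 (0.12, lost in 6 of 17 alternatives) and in set 3 (0.21, lost in 6 of 23). The oxidant response factor NFE2L2 rose in set 3 (0.22, lost in 11 of 23). Of the 7 genes 1 was called in set 1 and 2 were called in set 3, against 30.3% and 11.6% of all genes, and the remaining genes, among them EP300, CREBBP and SP1, were not called in any set.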

How the data were processed

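RNA of HEK293T cells was sequenced from TruSeq stranded mRNA libraries, per the labels' protocols. TPM values were deposited by the authors in 2 tables of 45372 genes each, with the 8 libraries of set 1 in one and the 12 libraries of sets 2 and 3 in the other. Per the submitters' processing notes the genome was hg38. The sources used here do not give the aligner, counter or annotation. TPM keeps no depth, so no counting interval was computed.

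From the deposited TPM, log2(TPM + 1) was taken. A gene entered the test where 4 or more of a table's libraries reached a TPM of 1. The test was limma 3.58.1 in R 4.3.3 with a variance trend and Benjamini-Hochberg adjustment over all tested genes. A gene was called at an adjusted p under 0.05. Fold changes on this scale understate the change of low genes. Each table was fitted separately, the second as 1 model of 3 groups. The members also had two-sided exact permutation tests of 4 TPM values against 4, whose smallest p is 0.0286. The limma fit was run on simulated data with independent noise for each gene, to check that known fold changes were recovered. The simulation did not measure the rate of false calls or the effect of outlying libraries.

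The members and gene lists were chosen with earlier results of these data known. Named from each list were the members called in any comparison and up to 4 with the smallest p, and for likeness the 5 genes with the highest Pearson correlation with MT2A. One gene that this rule names is not reported here. Coordinates are from GENCODE release 29 on GRCh38 and promoters from RefSeq GRCh38.p14. Other settings tried were no filter, a filter on a mean TPM of 5, a pseudocount of 0.1, median-of-ratios scaling, quantile normalization, removal of mitochondrially encoded genes, no variance trend, a robust variance, a block for the replicate number, a fit of only the 2 groups compared, and leaving out libraries.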

Additional observations from a re-analysis of the deposited data

Results flagged for a closer look

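Of 56 groups of 4 values examined over the members, their summed metallothionein level, HUWE1, SLC30A2, SLC39A10 and SLC39A4, leaving out groups with all values at 0, 4 held a library far from the other 3, where chance would flag about 1 in 20 groups. In HUWE1 siRNA set 2, replicate 4 stood apart for MT1X and MTF1. MT1X was at 56.8 TPM there and at 43.4 to 43.7 TPM in the other 3 libraries. MTF1 was at 19.9 TPM there and at 17.8 to 18.1 TPM in the others. MT1G was at 0.117 TPM there and listed at 0 in the others. Among the non-targeting libraries shared by sets 2 and 3, MT1G was at 0.236 TPM in replicate 4 and listed at 0 in the other 3. With 3 libraries at 0, any other value would be marked, so the MT1G values say only that the gene was near the floor.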

How the results depend on the processing

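In set 1 the count of called members stayed within 2 to 4 and that of all genes within 3640 to 4866 under all 17 alternatives. In set 2 the called genes numbered 1 with median-of-ratios scaling, without the variance trend, with the replicate block or with only the 2 groups compared, 6 without mitochondrially encoded genes, and 1 to 2 without single libraries, against 2 as reported. In set 3, against 1839 genes and 3 members as reported, there were 698 genes and 0 members without a filter, 693 and 1 with the replicate block, 360 and 0 with only the 2 groups compared, and 3245 and 1 without non-targeting replicates 1 and 4, and 1 member without the variance trend. Leaving out single libraries gave 163 to 5878 genes and 0 to 4 members in set 3. In set 3 against set 2, against 82 genes and 0 members, there were 42 genes without a filter, 17 with the block, 335 genes and 2 members with only the 2 groups compared, 541 and 2 without non-targeting replicates 1 and 4, and 20 to 228 genes and 0 to 2 members without single libraries. The block gave 4597 genes and 3 members in set 1. Over all tested genes, the deviations of same-numbered libraries from their group means correlated at 0.000215 to 0.0521 in set 1. The range was -0.48 to 0.04 in set 2 and -0.03 to 0.41 in set 3. What same-numbered libraries share was not tested, and in set 1 MT2A and SLC39A10 ranked them alike. Small fold changes changed sign. In set 2 MT1X (0.00) was -0.013 without mitochondrially encoded genes and -0.092 to 0.15 without single libraries, MTF1 (-0.02) was -0.067 to 0.012 and SLC30A1 (0.04) was -0.049 to 0.13, and in set 3 MT1F (0.06) was -0.031 to 0.11. The cause was not tested. Of the list genes, 21 of the 29 calls in set 1 and 1 of the 13 in set 3 held under every alternative. The share of called genes that were higher moved with scaling, from 40.8% as reported to 50.5% with median-of-ratios scaling in set 1 and from 64.2% to 48.9% in set 3. Depth is unknown and limits MT1E and MT1G, which stayed near 0.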
